A study of Mus musculus with 8 samples.

Results

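Genes of non-P450 drug metabolism were described in the lungs of mice given mepenzolate or vehicle: 3 carboxylesterases (Ces1d, Ces1f and Ces1g), 2 aldehyde dehydrogenases (Aldh1a1 and Aldh3a1), 2 flavin-containing monooxygenases (Fmo1 and Fmo2) and 2 sulfotransferases (Sult1a1 and Sult1d1). The 9 genes were taken by name from 19937 genes that had a probe set with exactly 1 gene symbol, and each had 1 such probe set on the array. All 9 were bright enough to be tested, among 14953 genes tested in all.

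The groups were whole lungs 25 h after mepenzolate, 25 h after vehicle, 7 h after mepenzolate and 7 h after vehicle, with 2 arrays each and 8 arrays in total. Mepenzolate is a blocker of muscarinic acetylcholine receptors, and it was put into the airway in phosphate-buffered saline by micropipette under chloral hydrate anaesthesia (500 mg/kg). Strain, sex, age and the dose of mepenzolate were not given in the sources used here, and the labels do not say whether arrays of 1 group stand for different mice, for pools or for 1 RNA hybridised again. The p-values therefore reflect only how far these arrays scattered, which may be technical. The series belongs to work on mepenzolate in chronic obstructive pulmonary disease, but the labels of these arrays name no agent that induces disease. In whole lung RNA, fewer cells of a type and less RNA per cell cannot be told apart.

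These enzymes act on foreign and endogenous small molecules by reactions other than those of cytochrome P450. Carboxylesterases cleave esters, amides and lipid esters, aldehyde dehydrogenases oxidise aldehydes to acids, flavin-containing monooxygenases add oxygen to nitrogen and sulfur atoms, and sulfotransferases transfer sulfate from the donor PAPS to phenols, amines and steroids. In mouse lung, carboxylesterases and aldehyde dehydrogenases are known from airway club cells among other cells, and FMO2 is known as a main lung form of its family.

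The members lie among close relatives in the genome. In the RefSeq annotation of GRCm38.p6, Ces1d, Ces1f and Ces1g lie on chromosome 8 in a run with Ces1c, Ces1e and Ces1h. Fmo1 and Fmo2 are neighbours on chromosome 1, Aldh1a1 lies beside Aldh1a7 on chromosome 19, Aldh3a1 beside Aldh3a2 on chromosome 11, and Sult1d1 between Sult1b1 and Sult1e1 on chromosome 5. Sult1a1 lies on chromosome 7 between Sgf29 and Slx1b. Cross-hybridisation between such relatives was not tested, so the Ces1 and Aldh1a values in particular are uncertain in their assignment to a single gene.

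RefSeq promoter windows of GRCm38.p6, covering 250 bases before and 50 after a transcript start, were at hand for 5 of the 9 genes. Those of Sult1a1, Ces1g and Sult1d1 are shown because Sult1a1 was the member that passed the test between times, and Ces1g and Sult1d1 were set apart by drug in opposite directions at the 2 times. They run 5′ to 3′ along the gene, from chr7:126676369-126676668 (minus strand), chr8:93337160-93337459 (minus strand) and chr5:87568957-87569256 (minus strand). Capitals mark matches to the letters searched.
Sult1a1: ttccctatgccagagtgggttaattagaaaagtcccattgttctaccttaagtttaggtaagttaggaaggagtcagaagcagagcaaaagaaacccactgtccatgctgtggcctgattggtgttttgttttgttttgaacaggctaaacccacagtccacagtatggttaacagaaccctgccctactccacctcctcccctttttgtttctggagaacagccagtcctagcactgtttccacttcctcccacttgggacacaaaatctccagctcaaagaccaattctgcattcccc
Ces1g: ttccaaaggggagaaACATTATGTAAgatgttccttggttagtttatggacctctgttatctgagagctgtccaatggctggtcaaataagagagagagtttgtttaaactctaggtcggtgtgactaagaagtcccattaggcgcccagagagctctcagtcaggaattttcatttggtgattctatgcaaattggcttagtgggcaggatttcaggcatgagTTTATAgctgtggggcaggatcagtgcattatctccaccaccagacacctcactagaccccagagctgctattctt
Sult1d1: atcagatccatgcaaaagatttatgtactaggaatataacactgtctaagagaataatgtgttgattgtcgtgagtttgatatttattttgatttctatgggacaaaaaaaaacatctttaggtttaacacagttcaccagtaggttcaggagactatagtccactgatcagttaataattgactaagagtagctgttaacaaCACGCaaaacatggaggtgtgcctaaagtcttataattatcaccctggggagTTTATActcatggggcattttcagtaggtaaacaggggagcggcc

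The letters searched, on both strands, were TTATGNAA (the D-box core, bound by the clock output factors DBP, TEF and HLF), CACGTG (the E-box), ACANNNTGT (a core of glucocorticoid receptor sites), TGACNNNGC (the antioxidant response element core), GCGTG (the dioxin response element core) and TATAAA (the TATA box). The Ces1g window held TTATGTAA starting 232 bases before the start site, overlapping ACATTATGT, and TATA box letters on the opposite strand 26 bases before it. Of 32851 mouse windows of this length, 3.38% held the D-box core and 6.85% the ACANNNTGT core. The Sult1d1 window held GCGTG letters on the opposite strand, which 32.4% of windows hold, and TATA box letters past the start site, which 13.6% of windows hold. None of the 6 sets of letters was in the Sult1a1 window shown, and the E-box (7.15% of all windows) and antioxidant (12.4%) letters were in none of the 7 windows of the 5 genes. These matches describe the sequence and are not evidence of binding.

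At 25 h, 8 of the 9 genes stood higher with mepenzolate than with vehicle and Fmo1 stood lower, but no difference passed the test. At 7 h all 9 stood lower in mepenzolate lungs, again with none past the test. Between the times, Sult1a1 fell, with a ratio of 0.729 for 25 h over 7 h across both treatments. The plot of expression on each array shows all values, as log2 expression after RMA (robust multi-array average), so that a difference of 1 is a doubling.

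**Figure D1:**
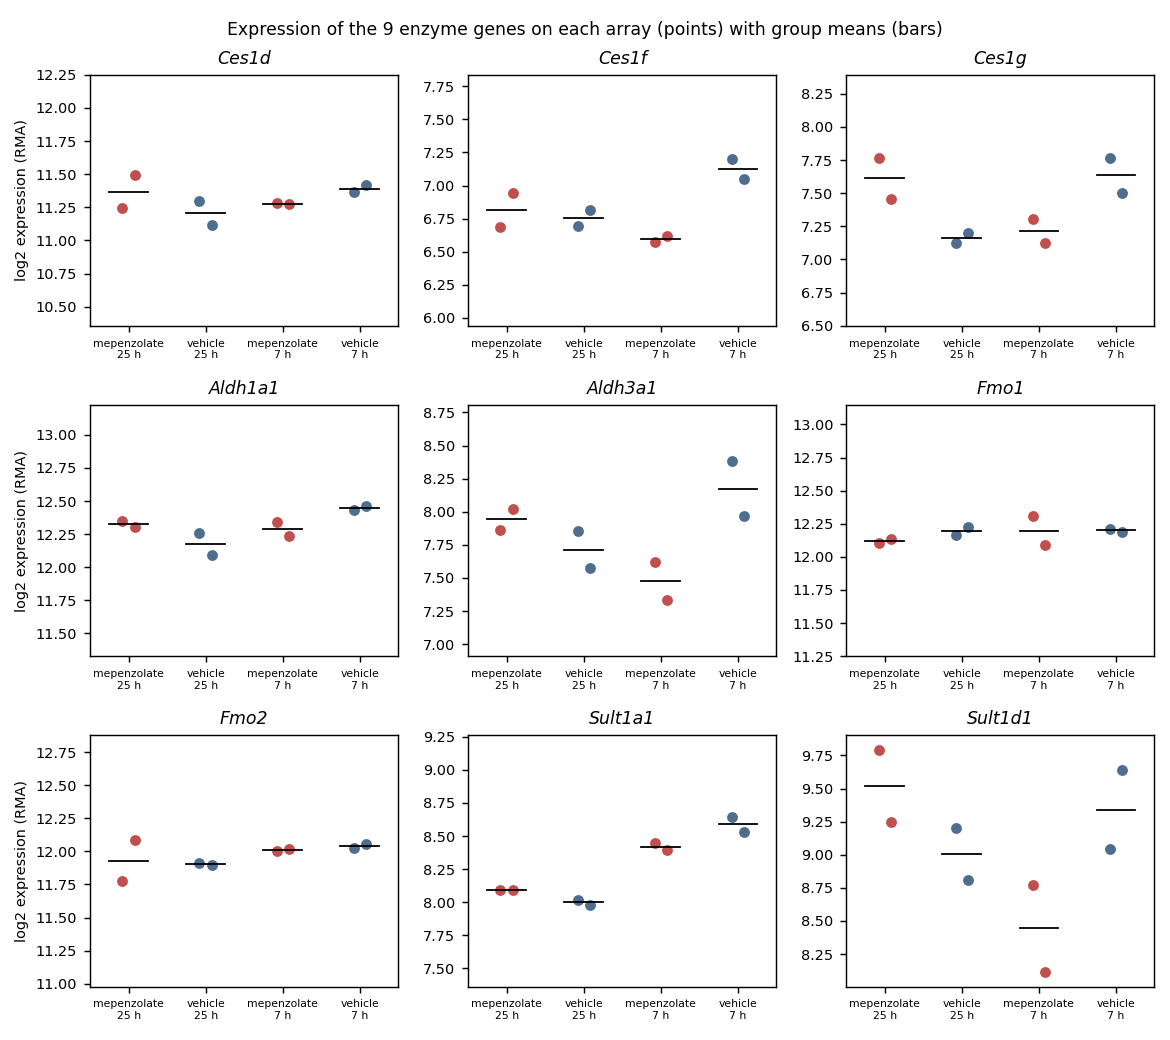
Log2 expression (RMA) of the 9 genes on each of the 8 arrays, 2 per group, with short bars at the group means. Each panel spans the same range of log2 values; Sult1d1 spread most, from 8.12 to 9.79, while Fmo1 stayed between 12.09 and 12.31.

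The carboxylesterase Ces1g, which hydrolyses esters and lipids, had 7.76 and 7.46 in mepenzolate lungs at 25 h, against 7.12 and 7.20 in vehicle lungs at 25 h. At 7 h it had 7.30 and 7.12 in mepenzolate lungs, against 7.77 and 7.50 in vehicle lungs. The groups did not overlap at either time, and mepenzolate lungs were the higher ones at 25 h and the lower ones at 7 h. Mepenzolate lungs minus vehicle lungs gave a log2 difference of 0.45 ± 0.13 at 25 h and -0.42 ± 0.13 at 7 h (moderated SE, n = 2 arrays per group). Limma gave adjusted p = 0.979 and 1.00 over all genes tested, with unadjusted p = 0.00909 and 0.0127. Without the first mepenzolate array at 25 h the 25 h value was 0.30.

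Ces1f, a carboxylesterase known from liver, had 6.69 and 6.94 in mepenzolate lungs at 25 h, against 6.70 and 6.81 in vehicle lungs. The 7 h values were 6.58 and 6.62 in mepenzolate lungs, against 7.20 and 7.05 in vehicle lungs. The groups overlapped at 25 h and were apart at 7 h, when the 2 vehicle arrays were the highest of all 8. The difference was 0.06 ± 0.11 at 25 h and -0.53 ± 0.11 at 7 h, with limma adjusted p = 0.980 and 1.00. Leaving out the second mepenzolate array at 25 h turned the 25 h value to -0.07, and the other 3 arrays of that time gave 0.0035 to 0.19 when left out.

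Ces1d, a triacylglycerol hydrolase of liver and fat, had 11.25 and 11.49 in mepenzolate lungs at 25 h, against 11.29 and 11.11 in vehicle lungs. The 7 h arrays read 11.28 and 11.27 in mepenzolate lungs, against 11.37 and 11.42 in vehicle lungs. The groups overlapped at 25 h and lay apart by a small gap at 7 h. The difference was 0.16 ± 0.10 at 25 h (95% interval -0.08 to 0.40) and -0.11 ± 0.10 at 7 h (-0.35 to 0.12). The 25 h value was 0.04 without the second mepenzolate array, 0.29 without the first, 0.07 without the second vehicle array and 0.25 without the first.

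Aldh3a1, which oxidises medium-chain and aromatic aldehydes, had 7.86 and 8.02 in mepenzolate lungs at 25 h, against 7.85 and 7.58 in vehicle lungs. At 7 h it had 7.62 and 7.33 in mepenzolate lungs, against 8.38 and 7.96 in vehicle lungs. Mepenzolate lungs were higher at 25 h by a gap barely above 0 and lower at 7 h without overlap. The difference was 0.23 ± 0.17 at 25 h and -0.70 ± 0.17 at 7 h, with limma adjusted p = 0.979 and 1.00. The 25 h value was 0.15 without the second mepenzolate array, 0.09 without the second vehicle array and 0.37 without the first vehicle array.

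Aldh1a1, a retinaldehyde dehydrogenase that also handles lipid aldehydes, had 12.35 and 12.30 in mepenzolate lungs at 25 h, against 12.26 and 12.09 in vehicle lungs. The values at 7 h were 12.34 and 12.23 in mepenzolate lungs, against 12.43 and 12.46 in vehicle lungs. Its groups did not overlap at either time, again in opposite directions, with differences of 0.15 ± 0.09 at 25 h and -0.16 ± 0.09 at 7 h. Both 95% intervals took in 0 (-0.05 to 0.35 at 25 h, -0.36 to 0.04 at 7 h), and the 25 h value was 0.06 without the second vehicle array and 0.23 without the first.

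The sulfotransferase Sult1d1, which in mice sulfates catecholamines and other phenols, had 9.79 and 9.25 in mepenzolate lungs at 25 h, against 9.20 and 8.81 in vehicle lungs. At 7 h it had 8.77 and 8.12 in mepenzolate lungs, against 9.04 and 9.64 in vehicle lungs. The groups did not overlap at either time, but the 2 arrays of each group were far apart. The difference was 0.52 ± 0.29 at 25 h and -0.90 ± 0.29 at 7 h, with limma adjusted p = 0.979 and 1.00. Without the second mepenzolate array at 7 h the 7 h value was -0.57, and without the first it was -1.22. The 25 h value was 0.24 without the first mepenzolate array of that time, 0.79 without the second and 0.32 without the second vehicle array.

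Sult1a1, a phenol sulfotransferase, had 8.10 on both mepenzolate arrays at 25 h, against 8.02 and 7.98 in vehicle lungs. At 7 h it had 8.44 and 8.39 in mepenzolate lungs, against 8.65 and 8.53 in vehicle lungs. The groups were apart at both times by less than the step between the times. The difference was 0.10 ± 0.08 at 25 h and -0.17 ± 0.08 at 7 h, with limma adjusted p = 0.979 and 1.00. Without the first vehicle array at 7 h the 7 h value was -0.11.

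The flavin-containing monooxygenases stayed close together across the groups. Fmo1 had 12.10 and 12.14 in mepenzolate lungs at 25 h, against 12.17 and 12.22 in vehicle lungs, and at 7 h 12.31 and 12.09 in mepenzolate lungs, against 12.21 and 12.19 in vehicle lungs. Fmo2 had 11.77 and 12.09 in mepenzolate lungs at 25 h, against 11.91 and 11.90 in vehicle lungs, and at 7 h 12.00 and 12.02 in mepenzolate lungs, against 12.03 and 12.06 in vehicle lungs. For Fmo1 the difference was -0.08 at 25 h (95% interval -0.29 to 0.13) and -0.0011 at 7 h (-0.21 to 0.21). For Fmo2 it was 0.02 at 25 h (-0.22 to 0.26) and -0.03 at 7 h (-0.27 to 0.21).

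**Figure D2:**
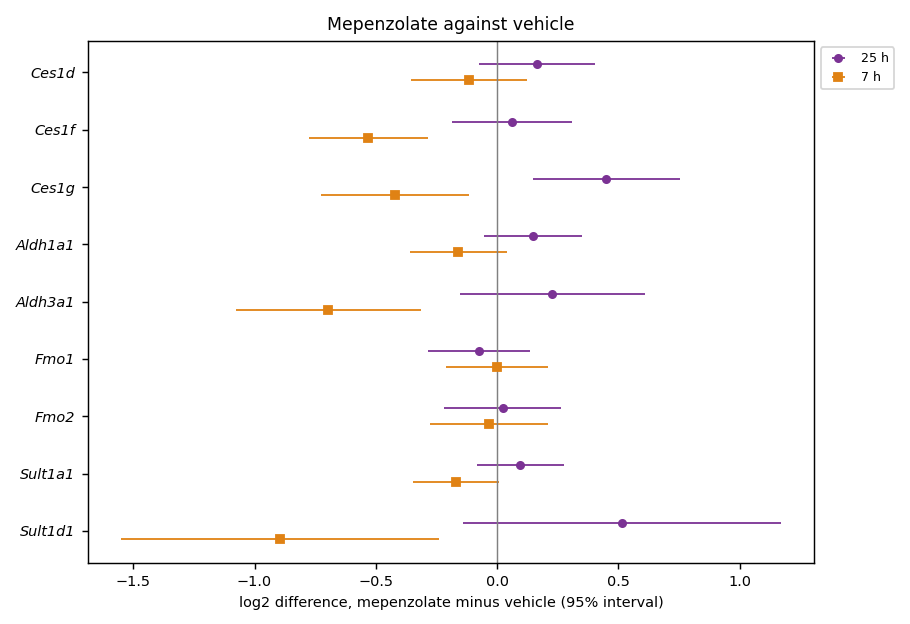
Log2 difference, mepenzolate minus vehicle, for each of the 9 genes at 25 h (circles) and 7 h (squares), with 95% intervals of the moderated fit that are not adjusted for the number of genes. The 7 h points lie at or left of 0, from -0.90 to -0.0011, and the 25 h points lie right of 0 except that of Fmo1 (-0.08).

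Limma called 0 of the 9 genes and 0% of all 14953 genes at 25 h, and likewise 0 and 0% at 7 h. An unadjusted p under 0.05 was reached by 1 of 9 members at 25 h (Ces1g), against 4.01% of all genes, and by 4 of 9 at 7 h (Ces1f, Aldh3a1, Ces1g and Sult1d1), against 2.39%. The median difference of the 9 genes was 0.15 at 25 h, against -0.02 over all genes, and -0.17 at 7 h, against -0.01 over all genes. At 25 h 41.3% of all genes stood higher in mepenzolate lungs, and at 7 h 43.6%. Arrays of the 2 groups did not overlap for 5 members that were higher in mepenzolate lungs at 25 h, against 14.2% of all genes. They also lay apart for 1 that was lower at 25 h (Fmo1), against 22.4%, and for 8 that were lower at 7 h, against 15.5%. The members were chosen with earlier results of these data known, and they share the same arrays. These counts are therefore not a test of the set.

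The difference of the drug effect between the times, 25 h minus 7 h, was positive for 8 of 9 genes. It was 1.41 ± 0.40 for Sult1d1, 0.92 ± 0.23 for Aldh3a1, 0.87 ± 0.19 for Ces1g and 0.59 ± 0.15 for Ces1f. Smaller values were found for Aldh1a1 (0.31 ± 0.12), Ces1d (0.28 ± 0.15), Sult1a1 (0.27 ± 0.11) and Fmo2 (0.05 ± 0.15), and Fmo1 stood at -0.07 ± 0.13. Limma called 0 members and 0% of all genes (smallest adjusted p of any gene 1.00). An unadjusted p under 0.05 was reached by 6 of 9 members, against 2.68% of all genes. Groups apart with mepenzolate higher at 25 h and lower at 7 h were seen in 5 of 9 members, against 1.71% of all genes. These were Ces1g, Aldh1a1, Aldh3a1, Sult1a1 and Sult1d1. The opposite pattern was seen in 0 of 9, against 1.82%. Since the members were chosen with earlier results known and share arrays, these counts too are not a test of the set. With the effects of both times averaged, 4 arrays against 4, the differences ran from -0.23 (Ces1f and Aldh3a1) to 0.02 (Ces1d), and limma called 0 members and 0% of all genes (an unadjusted p under 0.05 in 3.77% of all genes, and in 1 member, Ces1f). The arrays of the 2 treatments overlapped for all 9 members, while they lay apart for 0.602% of all genes with mepenzolate higher and 1.81% with mepenzolate lower.

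Means of the club cell, cardiac muscle, clock and glucocorticoid-induced lists also lay apart between the 7 h groups, lower with mepenzolate. The mesothelial mean lay apart too, but higher with mepenzolate (8.32 and 8.23, against 8.08 and 8.20 in vehicle lungs). Those of ciliated cells, liver, fat, alveolar type 1 and 2 and endothelial cells overlapped. Among all single genes tested, 15.5% lay apart and lower at 7 h, and 8.26% apart and higher. At 7 h 0 genes of these lists passed limma's test. The mean difference at 7 h was 0.03 for alveolar type 1, 0.0063 for alveolar type 2 and -0.02 for endothelial markers. It was 0.16 for fat and 0.13 for mesothelial markers. Over 10 club cell markers the mean log2 level at 7 h was 10.71 and 10.28 in mepenzolate lungs, against 10.92 and 10.90 in vehicle lungs, and 8 of 10 were lower in mepenzolate lungs. Of the club cell defining genes, Scgb1a1 differed by 0.02 ± 0.09 at 7 h, Cyp2f2 by -0.07 ± 0.08 and Scgb3a2 by -0.23 ± 0.12. The mean of 10 ciliated cell markers was 8.42 and 7.80 in mepenzolate lungs, against 8.26 and 8.37 in vehicle lungs, with overlap, and 9 of 10 had a lower mean (Foxj1 -0.22 ± 0.10, Tekt1 -0.03 ± 0.10 and Dnah5 -0.29 ± 0.23). The mean of 10 cardiac muscle markers was 9.72 and 9.93 in mepenzolate lungs, against 10.16 and 10.18 in vehicle lungs, without overlap, and 9 of 10 were lower (Myh6 -0.25 ± 0.17, Tnnt2 -0.46 ± 0.34 and Actc1 -0.18 ± 0.13). Of 12 glucocorticoid-induced genes 11 were lower at 7 h with mepenzolate, with a mean difference of -0.38. Of 10 liver markers 6 were tested, with a mean of 6.26 and 7.13 in mepenzolate lungs, against 6.20 and 6.37 in vehicle lungs. Albumin, Alb, had 8.93 on the second mepenzolate array at 7 h, while the other 7 arrays had 5.94 to 6.39, the 7 h difference was 0.25 ± 0.24 for Apoa1 and 0.63 ± 0.15 for Ahsg, and no marker was at 0 because RMA values have no zero. That second mepenzolate array was the lowest of all 8 for Aldh3a1, Sult1d1 and Fmo1, and Ces1g had 7.12 there. Without it the 7 h differences were -0.55 for Aldh3a1, -0.55 for Ces1f, -0.33 for Ces1g, -0.57 for Sult1d1 and 0.11 for Fmo1. At 25 h the club cell mean was 10.76 and 10.77 in mepenzolate lungs, against 10.80 and 10.60 in vehicle lungs. The part of these markers in the differences between the groups was not tested.

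Between the times, Sult1a1 was the member that passed the test. It averaged 8.05 ± 0.06 at 25 h and 8.50 ± 0.11 at 7 h (SD, n = 4 arrays each), and all 4 arrays at 25 h lay below all 4 at 7 h. The log2 difference was -0.46 ± 0.05 (95% interval -0.58 to -0.33), a ratio of 0.729, with limma adjusted p = 0.0212. It was -0.32 ± 0.08 in mepenzolate lungs (limma adjusted p = 0.377) and -0.59 ± 0.08 in vehicle lungs (adjusted p = 0.0533). Leaving out any 1 array kept the value between -0.48 and -0.43 but brought the adjusted p to between 0.0585 and 0.163, so that the call ended in each of the 8 fits. Limma called 1 of 9 members, against 0.221% of all genes (33 genes), and 0.181% passed with a lower level at 25 h. At an unadjusted p under 0.05 it was again Sult1a1 alone, 1 of 9, against 8.97% of all genes, and all 4 arrays at 25 h lay below all 4 at 7 h in 4.15% of all genes.

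Known clock and glucocorticoid-induced genes moved between the same times. Of 13 tested clock genes 9 passed limma, among them Arntl (1.47 ± 0.09, adjusted p = 0.00254), the core activator, Dbp (-1.76 ± 0.19, adjusted p = 0.0101), a D-box binding factor, and Per2 (-1.25 ± 0.08, adjusted p = 0.00254), a repressor. Of 12 glucocorticoid-induced genes all stood lower at 25 h and 5 passed, including Per1 (-1.80 ± 0.15) and Tsc22d3 (-0.81 ± 0.07), while Fkbp5 (-0.43 ± 0.11, adjusted p = 0.190) did not. The mean of that list was 8.66 and 8.49 in mepenzolate lungs and 8.63 and 8.46 in vehicle lungs at 25 h, and 8.94 and 9.06 in mepenzolate lungs and 9.42 and 9.33 in vehicle lungs at 7 h. Their part in the Sult1a1 difference was not tested, and the labels give no time of day.

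The other 8 genes did not pass between the times, and in several the mepenzolate and vehicle lungs differed in sign. In mepenzolate lungs the difference, 25 h minus 7 h, was 1.08 ± 0.29 for Sult1d1, 0.46 ± 0.17 for Aldh3a1, 0.40 ± 0.13 for Ces1g and 0.22 ± 0.11 for Ces1f. In vehicle lungs all 9 stood lower at 25 h, with differences of -0.47 ± 0.13 for Ces1g, -0.46 ± 0.17 for Aldh3a1, -0.37 ± 0.11 for Ces1f, -0.33 ± 0.29 for Sult1d1 and -0.27 ± 0.09 for Aldh1a1. Limma called 0 members in mepenzolate lungs, against 0.0268% of all genes, and 0 in vehicle lungs, against 0.0869%. An unadjusted p under 0.05 was reached by 4 of 9 members in mepenzolate lungs, against 6.37% of all genes. In vehicle lungs it was reached by 5 of 9, against 5.74%. Members chosen with earlier results known make these counts no test of the set. These comparisons use the same arrays as those of mepenzolate against vehicle, so the vehicle arrays at 7 h enter both. That group had the highest mean for 8 of the 9 members (not Sult1d1), and the share over all genes was not computed. Its lead was within the gap between arrays for Ces1g (7.64, against 7.61 in mepenzolate lungs at 25 h). The same held against that group for Ces1d (11.39, against 11.37) and Aldh3a1 (8.17, against 7.94). It also held for Fmo1 (12.2001, against 12.199 in mepenzolate lungs at 7 h). For Fmo2 the second mepenzolate array at 25 h (12.09) stood above both vehicle arrays at 7 h (12.03 and 12.06).

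**Figure D3:**
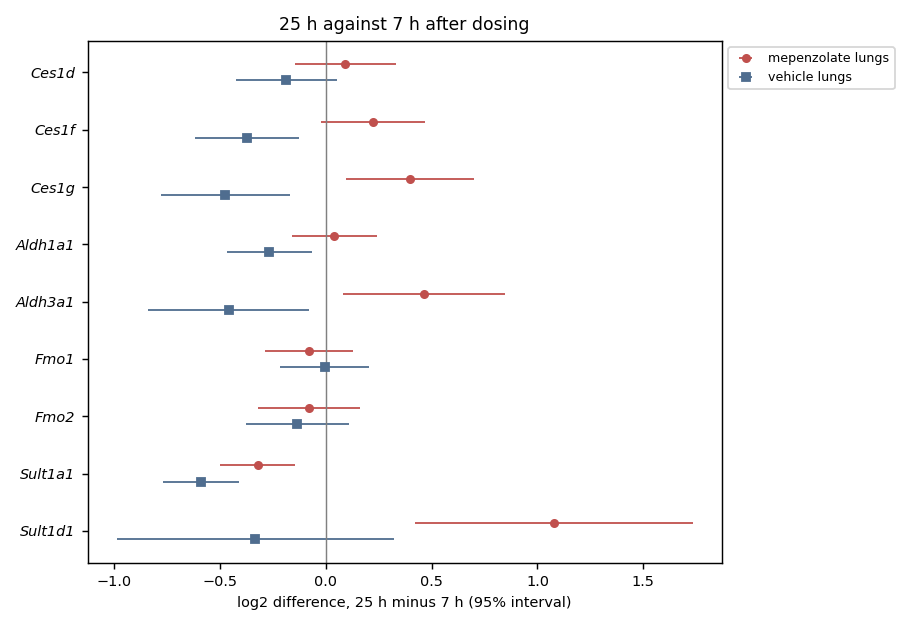
Log2 difference, 25 h minus 7 h, for each of the 9 genes in mepenzolate lungs (circles) and vehicle lungs (squares), with unadjusted 95% intervals. Sult1a1 lies left of 0 in both (-0.32 and -0.59), and Sult1d1 lies at 1.08 in mepenzolate lungs and at -0.33 in vehicle lungs.

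Over the 4 groups, the order of mean levels was vehicle 7 h, mepenzolate 25 h, vehicle 25 h and mepenzolate 7 h for Ces1f and Aldh3a1, from highest to lowest. For Ces1f, mepenzolate and vehicle lungs at 25 h overlapped and are not ordered beyond their spread. For Aldh3a1, mepenzolate 25 h overlapped vehicle 7 h, and mepenzolate 7 h overlapped vehicle 25 h, so those neighbours are not ordered either. For Ces1g the 2 high groups (mepenzolate 25 h at 7.61, vehicle 7 h at 7.64) overlapped, as did the 2 low ones (mepenzolate 7 h at 7.21, vehicle 25 h at 7.16). Sult1d1 had its highest mean in mepenzolate lungs at 25 h (9.52 ± 0.38), which overlapped vehicle 7 h (9.34 ± 0.42), and its lowest in mepenzolate lungs at 7 h (8.44 ± 0.46; SD, n = 2 each).

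The same families hold 55 further genes listed for comparison, with the 2 PAPS synthases, of which 48 had a probe set with 1 symbol and 33 were bright enough to test. Limma called 0 of the 33 in each of the 5 comparisons. An unadjusted p under 0.05 was reached by 3 at 25 h (4.01% of all genes) and 3 at 7 h (2.39%). It was reached by 2 over both times (3.77%), 2 for the difference between the times (2.68%) and 1 between the times (8.97%). At 25 h 13 stood higher and 20 lower in mepenzolate lungs (median -0.03, against -0.02 over all genes). At 7 h 10 stood higher and 23 lower (median -0.05, against -0.01). Over all genes 41.3% stood higher at 25 h and 43.6% at 7 h. The smallest unadjusted p-values at 7 h belonged to Ces1e (-0.28 ± 0.09), which lies between Ces1d and Ces1f, to Aldh1l1 (-0.23 ± 0.10), a folate enzyme, and to Aldh1b1 (-0.26 ± 0.11), a mitochondrial form. At 25 h they belonged to Aldh1a2 (0.45 ± 0.15) and Aldh1a3 (-0.26 ± 0.10), which make retinoic acid, and to Aldh1a7 (0.30 ± 0.10), the neighbour of Aldh1a1.

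Ces1e had 6.50 and 6.63 in mepenzolate lungs at 25 h, against 6.45 and 6.35 in vehicle lungs, and at 7 h 6.44 and 6.42 in mepenzolate lungs, against 6.77 and 6.64 in vehicle lungs. The difference of its drug effect between the times was 0.44 ± 0.12, that of Aldh1a7 was 0.43 ± 0.14 and that of Ces1a -0.27 ± 0.15. Averaged over both times, the smallest p-values were those of Aldh1a2 (0.33 ± 0.10), Aldh1a3 (-0.18 ± 0.07) and Aldh1l1 (-0.15 ± 0.07). Between the times they were those of Papss2 (-0.22 ± 0.07), which makes the sulfate donor PAPS, Ces2e (-0.22 ± 0.11) and Aldh1l1 (0.12 ± 0.07), with 12 of 33 higher and 21 lower at 25 h.

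**Figure D4:**
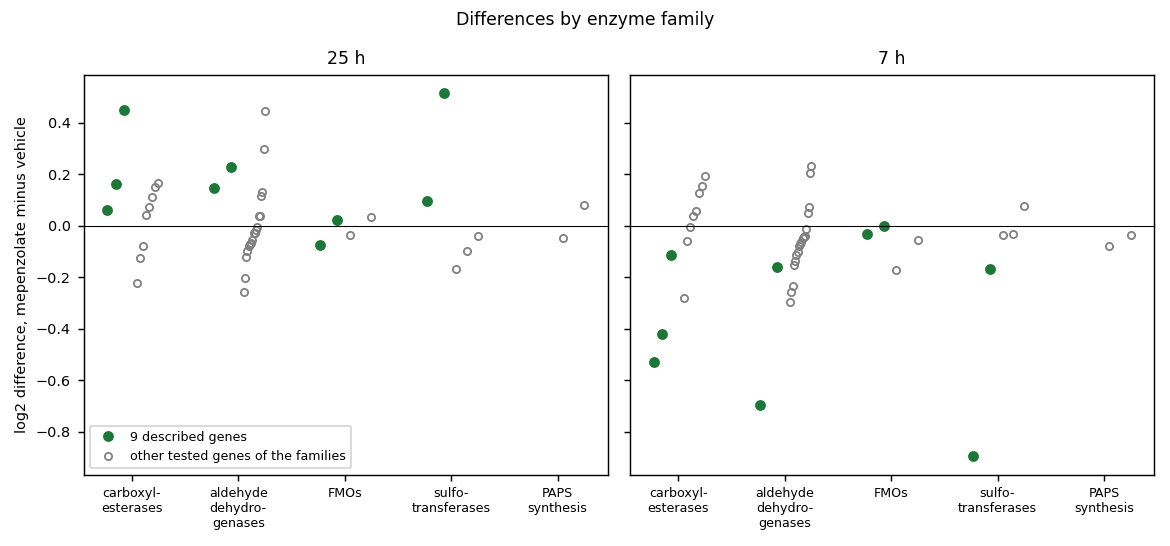
Log2 difference, mepenzolate minus vehicle, at 25 h (left) and 7 h (right) by enzyme family, with the 9 described genes as filled points and the 33 other tested genes as open points. At 7 h Sult1d1 (-0.90), Aldh3a1 (-0.70), Ces1f (-0.53) and Ces1g (-0.42) lie below every open point, of which the lowest is at -0.30.

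The gene whose pattern over the 8 arrays was most like that of each member was found among 14944 other tested genes by Pearson's r, with no test. For Sult1a1 it was Syde2 (r = 0.988), and 98 genes had r above 0.9, against 5 to 29 for the other members. For the carboxylesterases they were Depp1 (0.951, Ces1d), Mpzl2 (0.948, Ces1f) and Setd6 (0.948, Ces1g). For the others they were Acaa2, a mitochondrial thiolase (0.974, Aldh1a1), Tmem243 (0.966, Aldh3a1), Yars, a tRNA synthetase (0.966, Fmo1), Rab22a (0.967, Fmo2) and Med21, a Mediator subunit (0.963, Sult1d1). With 8 arrays and this many genes, values of this size describe these arrays only.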

How the data were processed

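Total RNA of mouse lung was labelled with biotin and measured on Affymetrix mouse gene arrays, 8 arrays in 4 groups of 2, assigned by title. The deposited values are log2 expression levels of 34760 probe sets, made by the authors with RMA per the submitters' processing notes, which give no version. Differences of dim genes are compressed by RMA. There is no read depth, and precision is limited by the number of arrays.

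A single gene symbol was available for 21640 probe sets, several for 1321 and none here for 11799. RefSeq (GRCm38.p6) held the Entrez identifier of 21553 of the 21640 and lacked that of 87. The brightest probe set per gene was kept. Genes in the lowest 25% by mean level (under log2 5.93) were left out, and 14953 stayed. Limma 3.58.1 (R 4.3.3) fitted group means to the 8 arrays together (4 residual and 4.09 prior degrees of freedom), and Benjamini-Hochberg adjustment covered every gene tested (threshold 0.05). An exact permutation test could not fall below p = 0.333 with 2 arrays against 2. Changes were simulated for the 7 h comparison among 14953 genes, with 50 genes changed by each of log2 0.5, 1, 2 and 3 at once. The fit recovered 68% of genes changed by log2 0.5 and 100% of those changed by 1. The simulated noise was normal and independent between genes, which that of real arrays need not be. Many genes changed at once also make the adjusted threshold easier to pass, while the measured 7 h comparison called no gene. These shares therefore do not carry over. In the measured arrays Sult1d1, at -0.90 ± 0.29 at 7 h (moderated SE), was not called.

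The members and lists were chosen with earlier results of these data known. Of the 55 further family genes, those passing, or else the 3 with the smallest p per comparison, were named. So were the most alike gene per member and the first 3 genes of the club cell, ciliated, liver, cardiac, clock and glucocorticoid lists. Lists of alveolar type 1 and 2, mesothelial, endothelial and fat genes were also computed, and 0 of their genes passed limma in any comparison. The promoter letters were chosen after the values were seen. Alternatives were a replicate block, dropping the filter, quantile normalization, centring on array medians, a variance trend with robust fitting, averaging a gene's probe sets, the compared groups alone, each treatment alone for the times, and leaving out each array.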

Additional observations from a re-analysis of the deposited data

Results flagged for a closer look

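In 5 of the 9 members the mepenzolate and vehicle arrays did not overlap at either time, and the difference had opposite signs at the 2 times. All were lower with mepenzolate at 7 h and higher at 25 h, a pattern seen in 1.71% of all genes, and the opposite one in 1.82%. The effect at 25 h less that at 7 h was 1.41 for Sult1d1, 0.92 for Aldh3a1, 0.87 for Ces1g, 0.31 for Aldh1a1 and 0.27 for Sult1a1 (log2). In limma's test of this difference each had adjusted p = 1.00 over all genes tested.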

How the results depend on the processing

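At 25 h the fit with the replicate number as a block called 1 gene, against 0 without it, and between the times it called 73 genes, against 33. A variance trend with robust fitting called 123 between the times, mepenzolate lungs alone 4 and vehicle lungs alone 13, and the cause was not tested. Sult1a1 kept its call with the replicate block (-0.46, adjusted p = 0.0194), and 0 members passed in mepenzolate or vehicle lungs alone, where fewer arrays enter. No member passed under the block in the drug comparisons. The labels do not say that replicate numbers mark shared animals or days, and the deviations of same-numbered arrays correlated at -0.02 to 0.40 between groups.

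Leaving out single arrays gave 0 to 2 calls over all genes at 7 h, over both times and for the difference between the times, 0 to 1 at 25 h and 11 to 34 between the times, when 0 members passed. The time count was 12 without the second mepenzolate array at 25 h, 12 without the second vehicle array at 25 h, 21 without the second mepenzolate array at 7 h, 14 without vehicle array 1 at 7 h and 11 without vehicle array 2 at 7 h. The lone array of a group is then assumed to vary like the others. Members near 0 changed sign. Fmo1 ranged from -0.11 to 0.11 at 7 h and from -0.19 to 0.037 in the difference between the times. Fmo2 ranged from -0.13 to 0.18 at 25 h and from -0.10 to 0.21 in the difference, Ces1f from -0.068 to 0.19 at 25 h, and Ces1d from -0.037 to 0.086 over both times. Of 206 other alternatives for 31 differences of the members (the drug effect at 25 h, that at 7 h and its change between them for all 9, over both times for Ces1d, Ces1f and Aldh3a1, and 25 h against 7 h for Sult1a1), 0 reversed a sign and 2 ended a call, both for Sult1a1 within a single treatment.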
